A study of Mus musculus with 73 samples.

Results

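The promoters of Klf2 and Ap1m1 were compared on the same pairs of DNA elements, in a massively parallel reporter assay that places a promoter, a barcoded reporter gene and 2 further elements on 1 plasmid. Both promoters come from the same locus on mouse chromosome 8, where the windows from which they were cloned lie 78891 bp apart. Klf2 encodes a Krüppel-like transcription factor of the pluripotency network and is a developmentally controlled gene, whereas Ap1m1 encodes the medium (mu) chain of the clathrin adaptor complex AP-1, which sorts cargo between the trans-Golgi network and endosomes, and is used as a housekeeping gene. A combination was included when its 2 elements, each in the same position and orientation, were present in both libraries with an activity above 0 in all replicates. There were 13988 such combinations, out of 110180 combinations of a promoter and 2 elements in the whole series, 14936 in the Klf2 library and 15868 in the Ap1m1 library.

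Enhancers are regulatory elements that raise transcription from a promoter, and promoters differ in how far the same enhancer raises their output. Promoters of developmental genes are known as a class for strong dependence on distal enhancers. Housekeeping promoters are known for steady activity in most cell types and for a weaker response to many enhancers. Klf2 and Ap1m1 lie side by side in the genome near the same enhancers. Their promoters were compared here with every enhancer held constant. A difference between the classes was not tested, because Ap1m1 was the only housekeeping promoter.

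All plasmids were transfected into E14TG2a cells, a mouse embryonic stem cell line that was kept in 2i+LIF, a medium of kinase inhibitors and leukaemia inhibitory factor that holds the cells in naive pluripotency. The Klf2 group held the 3 biological replicates of the plasmid library with the Klf2 promoter, and the Ap1m1 group the 3 replicates of the library with the Ap1m1 promoter. Cells of both groups were collected 24 hours after transfection. The reporter sat on a transient plasmid, each promoter was a PCR product from within a window of 450 bp, and the elements were cloned downstream of the reporter, so that native distance and chromatin were absent. The elements were enhancers, which are PCR products from within 450-bp windows around DNase I hypersensitive sites of 9 loci, and 20 control fragments of random (5) or shuffled (15) sequence. Each promoter was represented by 1 plasmid library. The replicates of a promoter therefore share every barcoded plasmid, and errors that belong to a plasmid are common to its replicates and do not enter the p-values.

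Activity was the share of a barcode in the complementary DNA (cDNA) over its share in the plasmid DNA, averaged over the barcodes of a combination, and boost was the log2 of that activity over the median activity of the control-control (CC) combinations of the same replicate and library. Combinations with 1 enhancer and 1 control are called EC, and those with 2 enhancers EE. Of the shared combinations, 331 were CC, 5085 EC and 8572 EE. Activities are relative to the total of each library, so the absolute strength of the promoters was not compared here. On this relative scale the log2 median CC activity was -1.33 ± 0.11 with Klf2 and -0.77 ± 0.12 with Ap1m1 (mean and SD over replicates). The paper reports that developmental promoters with a lower baseline responded more steeply to enhancer pairs. Whether the differences in boost follow the baseline was not tested. A boost is measured within a library, and a boost of 1 is a doubling over the control combinations.

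The Klf2 library correlated more closely between replicates than the Ap1m1 library (Pearson's r of log2 activity over combinations 0.85 to 0.89 against 0.74 to 0.78). The baseline rested on 477 CC combinations for Klf2 and 424 for Ap1m1. Among them, 19.1% of the Klf2 combinations had their 2 controls in opposite orientations, while all 424 of Ap1m1 and all 331 shared ones had them in the same orientation. The second Ap1m1 replicate gave higher boosts than the other 2 for all 10 of the most promoter-dependent enhancers described below, and the second Klf2 replicate did so for 8 of the 10. The numbers of barcodes and reads behind a value are not in the table used, so the counting error is unknown.

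The promoters are shown first because they define the libraries. The Klf2 fragment was amplified from within the design window chr8:72318658-72319107 (mm10), which overlaps the 5′ end of Klf2, and the Ap1m1 fragment from within chr8:72239767-72240216. The coordinates of enhancers below are also those of such windows, and the cloned products are shorter. The RefSeq window of the Klf2 promoter (GRCm38.p6, plus strand) has 69.3% GC and 32 CpG dinucleotides over 300 bases, and 89.5% of 32851 mouse promoter windows of that length have a lower GC content. Its 250 bases before the annotated start, chr8:72318812-72319061, are printed with GC boxes (GGGCGG, either strand) and TATA motifs (TATAA, either strand) in capitals.
Klf2 promoter: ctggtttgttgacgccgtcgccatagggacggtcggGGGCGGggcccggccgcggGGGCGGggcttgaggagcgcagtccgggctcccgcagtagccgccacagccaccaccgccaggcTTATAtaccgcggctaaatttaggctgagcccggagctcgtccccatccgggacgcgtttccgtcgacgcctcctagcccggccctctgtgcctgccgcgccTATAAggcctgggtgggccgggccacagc
GC boxes were matched at -214 and -195 and TATA motifs at -131 (minus strand) and -29 (plus strand) relative to the start. A GC box is found in 35.7% and a TATAA in 24.9% of all promoter windows of the same length. The letters CCAAT and CCGGAA, the cores of the CCAAT box and of the ETS site, were not matched in the window on either strand. The Ap1m1 window was not part of the promoter table used here, so that fragment is identified by the genomic parts of its cloning primers, in their own 5′ to 3′ direction.
Ap1m1 forward primer: aaaggctcaactccaaatcggttc
Ap1m1 reverse primer: ctttggaaggtctcggcagtag

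Primer sequences are given in the same way for the enhancers at both ends of the comparison, because they define the fragments on which it turns. Sox2_E180 (chr3:34757763-34758212), Nodal_E159 (chr10:61415836-61416285) and Pou5f1_E081 (chr17:35503887-35504336) had the highest differences between the promoters. Otx2_E110 (chr14:48654527-48654976) had the lowest, and Klf2_E058 (chr8:72316077-72316526) is the fragment nearest to the Klf2 promoter. None of these overlaps an annotated RefSeq gene apart from Pou5f1_E081, which lies in the long non-coding RNA gene Gm32362.
Sox2_E180 forward primer: tttaagtttgccttgtgagctcagg
Sox2_E180 reverse primer: cggtattaaagtctccttcacaagacc
Nodal_E159 forward primer: tccttgttccctacactataagcatcc
Nodal_E159 reverse primer: ttgaaccagcggtctcctgc
Pou5f1_E081 forward primer: attgaatacagacaggactgctggg
Pou5f1_E081 reverse primer: atgaatcttccgtttcctccactctg
Otx2_E110 forward primer: gtcaaggaccaatcgttaagcactttc
Otx2_E110 reverse primer: agaagcaagttctgggatggagg
Klf2_E058 forward primer: cagggccataggttcagacaaag
Klf2_E058 reverse primer: aaggatgtttcaaactaagcctgacag

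Enhancers raised the Klf2 promoter further than the Ap1m1 promoter, and the gap widened from EC to EE combinations. The median EC boost was 0.76, 0.80 and 0.81 in the 3 Klf2 replicates and 0.44, 0.53 and 0.46 in the 3 Ap1m1 replicates. The replicates of the libraries did not overlap, with means of 0.79 ± 0.02 (SD, n = 3) and 0.48 ± 0.05 (SD, n = 3). The median EE boost was 1.34, 1.47 and 1.37 with Klf2 and 0.72, 0.87 and 0.75 with Ap1m1, a difference of 0.61 between the means. The step from EC to EE was 0.61 ± 0.06 (SD, n = 3) for Klf2 against 0.31 ± 0.03 (SD, n = 3) for Ap1m1. For each of these 3 differences the two-sided exact permutation p was 0.1, the smallest that 3 against 3 replicates can give, so no such comparison can reach 0.05. With the random controls alone as the baseline the EC difference was 0.11 (exact permutation p = 0.4) and the EE difference 0.41, while the difference in the step from EC to EE, 0.30, does not depend on the baseline. The median of the shared CC combinations was close to 0 with both promoters (-0.02 against 0.00, exact permutation p = 0.1).

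The same held when each combination was paired with itself across the libraries. The median difference of boost, Klf2 minus Ap1m1, was -0.04 over CC combinations, 0.29 over EC and 0.60 over EE. It was above 0 in 47.7% of the CC, 75.2% of the EC and 90.6% of the EE combinations. The SD over combinations was similar for the 3 types, at 0.46, 0.55 and 0.50. Across the combinations of a type the boosts of the libraries correlated with r = 0.63 for CC, 0.64 for EC and 0.60 for EE, in which combinations share their elements.

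**Figure D1:**
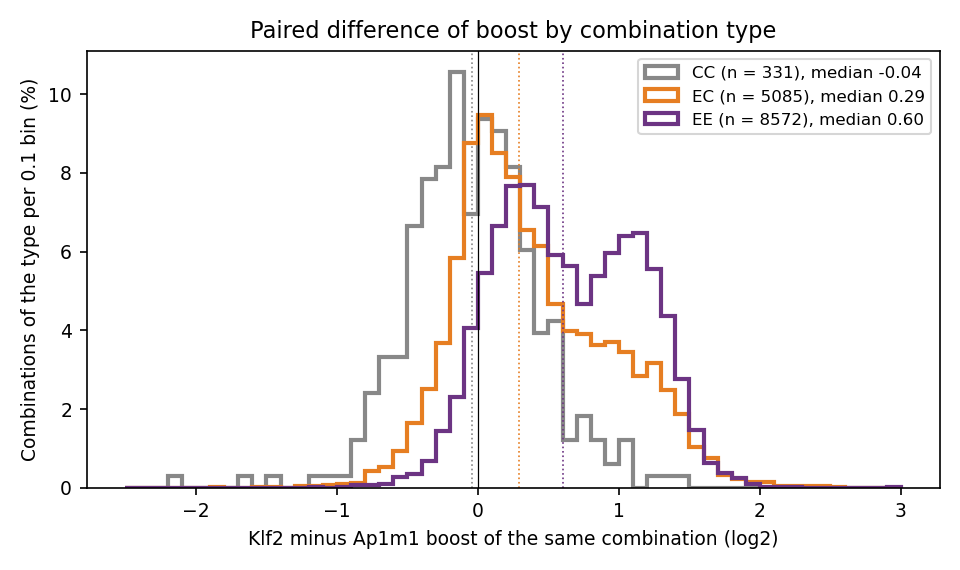
Distribution of the Klf2 minus Ap1m1 difference of boost (log2, x axis) over the 331 CC, 5085 EC and 8572 EE combinations, as the percent of the combinations of the type in each bin (y axis), with dotted lines at the medians of -0.04, 0.29 and 0.60. The CC combinations are centred near 0, the EC distribution has a long right side, and the EE distribution has a second peak above 1.

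By limma on each combination, at an FDR of 5%, 7413 combinations, 53.0% of those tested, had a higher boost with Klf2 and 216 (1.54%) a higher boost with Ap1m1. The calls were 1955 higher (38.4%) and 137 lower (2.69%) among EC, and 5433 higher (63.4%) and 52 lower (0.61%) among EE. Among CC, which hold no enhancer, 25 (7.55%) were higher and 27 (8.16%) lower, so the share lower was largest there. The replicates of the libraries did not overlap in 62.8% of all combinations. The number lower was 139 without the first and 135 without the third Ap1m1 replicate. Of the 216 combinations that were lower with Klf2, 44 held the enhancer Otx2_E110, which was in 70 EC and 245 EE of the shared combinations. These calls depend on the baseline. With the random controls alone as the baseline, which leaves 24 CC combinations for Klf2 and 29 for Ap1m1, 4575 were higher and 314 lower.

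The boosts were also spread more widely at the Klf2 promoter. Between their 5th and 95th percentiles the EC boosts covered 2.49 ± 0.12 (SD, n = 3) with Klf2 and 1.79 ± 0.12 (SD, n = 3) with Ap1m1, and the EE boosts 2.08 ± 0.12 against 1.58 ± 0.08, with an exact permutation p of 0.1 for each. The span of the CC combinations, which hold no enhancer, was 2.06 ± 0.05 against 1.98 ± 0.19 (exact permutation p = 0.7). A span does not depend on the choice of baseline.

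The difference between the promoters was large for some enhancers and small for most. Of the 56 enhancers with at least 6 shared EC combinations, 34 (60.7%) had a higher median boost with Klf2 by limma at an FDR of 5%, 1 (1.79%) had a lower one, and 21 were not called. The differences ranged from -0.29 to 1.47 with a median of 0.22. The 10 largest lay between 0.76 and 1.47, and the other 46 had a median of 0.18. The number 10 was a setting for naming and marks no break in the values. Next below Nanog_E090 (0.76) were Sox2_E183 (0.73) and Lefty1_E094 (0.65), while Nanog_E064 above it was at 0.99. On a baseline of random controls 12 enhancers were higher and 1 lower, and all 10 of the largest were called under every alternative run.

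Sox2_E180, from the cluster of enhancers downstream of the pluripotency gene Sox2, differed the most. Over 88 EC combinations its median boost was 1.60, 1.98 and 1.62 in the Klf2 replicates and -0.01, 0.50 and 0.29 in the Ap1m1 replicates, so every Klf2 value lay above every Ap1m1 value. The difference was 1.47 (SE 0.14, limma adjusted p = 4.05e-05), or 2.78-fold, and all 88 combinations had a higher boost with Klf2. Among the 56 enhancers Sox2_E180 ranked 7 by its boost at Klf2 and 46 at Ap1m1.

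Nodal_E159, near the gene of a TGF-beta family signal, followed a similar pattern. Its boosts were 1.64, 1.92 and 1.65 with Klf2 against 0.27, 0.61 and 0.31 with Ap1m1 (110 combinations, difference 1.34, SE 0.11). It ranked 6 at Klf2 and 33 at Ap1m1. Nanog_E074, next to the gene of the pluripotency factor Nanog, had 1.43, 1.79 and 1.44 against 0.16, 0.59 and 0.25 (84 combinations, difference 1.22, SE 0.13) and ranked 10 and 39. These 3 enhancers are strong at Klf2 and rank in the lower part or the middle at Ap1m1.

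Other members of the 10 were among the 10 highest boosts at both promoters, with a larger boost at Klf2. Pou5f1_E081, near the gene of the pluripotency factor Oct4, gave 2.13, 2.34 and 2.12 with Klf2, the highest single boost in that library, and 0.78, 1.11 and 0.75 with Ap1m1 (difference 1.32, SE 0.11), where it ranked 3. Nanog_E073 gave 2.05, 2.05 and 1.87 against 0.72, 0.87 and 0.66 (difference 1.24, SE 0.08). Lefty1_E085, near the gene of a Nodal antagonist, gave 1.82, 1.79 and 1.76 against 0.66, 0.90 and 0.75 (difference 1.02, SE 0.07). Otx2_E111 (difference 0.99) and Nanog_E090 (0.76) also ranked among the 10 highest at both promoters. Klf2_E058 (difference 1.25) ranked 3 at Klf2 and 19 at Ap1m1, and Nanog_E064 (0.99) ranked 11 and 38. Each of the 10 was called, and the limma adjusted p of the 10 lay between 7.35e-06 and 7.79e-05.

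The 10 were chosen by this difference, so their lying apart is a description. Of the 10, 9 were also among the 10 highest boosts at Klf2 and 5 among the 10 highest at Ap1m1. At Ap1m1 the highest single boosts were those of Lefty1_E094 (1.02, against 1.67 with Klf2) and Tbx3_E203 (0.91 against 1.12), from the locus of a T-box factor, and their differences were 0.65 and 0.21. Across the 56 enhancers the boosts at the promoters correlated with r = 0.64, and with r = 0.56 when the second Ap1m1 replicate was left out. The points share their libraries and the control partners. Without that replicate the 10 differences ranged from 0.83 to 1.59.

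**Figure D2:**
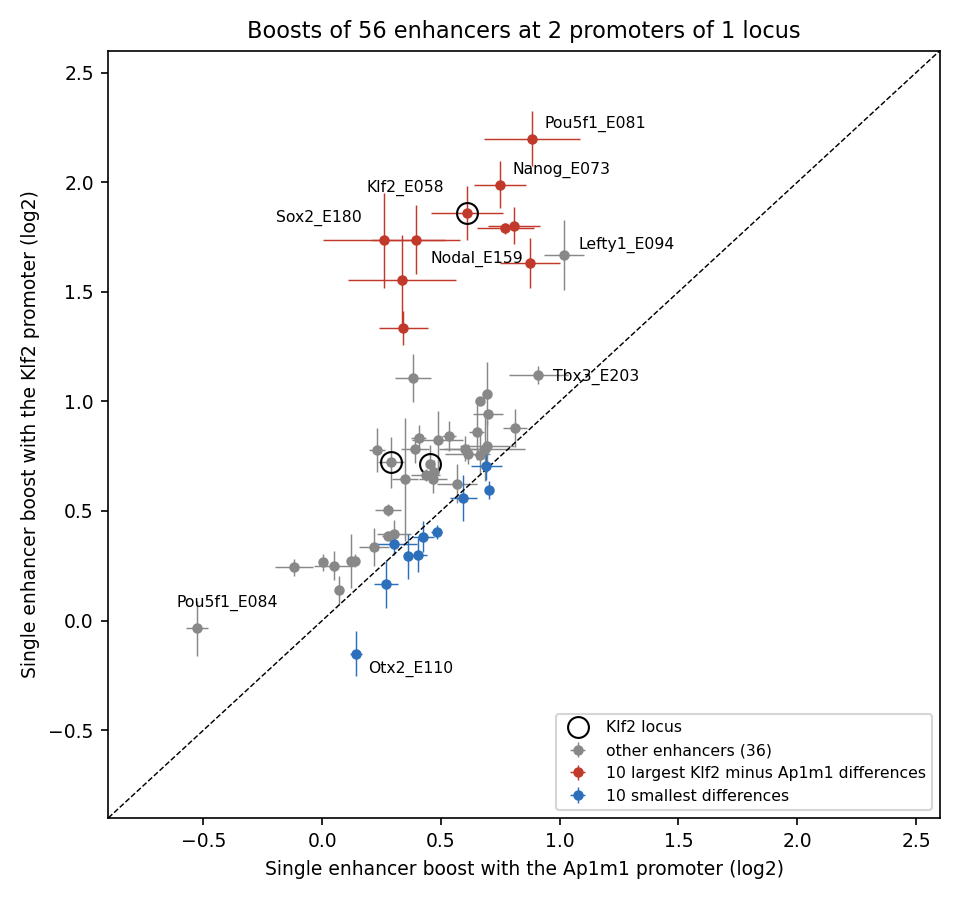
Median boost of each of 56 enhancers over its shared EC combinations with the Ap1m1 promoter (x axis, log2) and with the Klf2 promoter (y axis, log2), as the mean of 3 replicates. The Klf2 boosts run from -0.15 to 2.20 and the Ap1m1 boosts from -0.53 to 1.02, and the 10 enhancers with the largest difference lie far above the line of equality.

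At the other end the differences were small or negative. Otx2_E110, from the locus of the homeobox gene Otx2, was the only enhancer called lower with Klf2 when all replicates were used. Without the third Klf2 replicate 4 were called lower, with Nodal_E157, Nodal_E158 and Nodal_E162 added, and with a pseudocount of 0.05 there were 2, with Nodal_E158 added. Its boosts were -0.17, -0.24 and -0.04 with Klf2 and 0.17, 0.12 and 0.13 with Ap1m1, a difference of -0.29 (SE 0.06, limma adjusted p = 0.00323, 70 combinations). Every Klf2 value was below 0 and every Ap1m1 value above it. Its difference stayed below 0 under every alternative run, from -0.79 to -0.18, with an adjusted p of up to 0.114.

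The next 9 from the low end were not called. They ran from Nodal_E158 (0.60 ± 0.04 with Klf2 and 0.70 ± 0.01 with Ap1m1, SD, n = 3, difference -0.11, limma adjusted p = 0.0721) and Nodal_E162 (-0.10) through Nodal_E157 (-0.10), Fgf5_E037 (-0.08), Pou5f1_E077 (-0.07), Tbx3_E205 (-0.04), Lefty1_E095 (-0.04) and Otx2_E114 (0.01) to Otx2_E109 (0.05). The adjusted p of these 9 was between 0.0721 and 0.844. The SE of their differences was between 0.05 and 0.07, which is small against the differences among the 10.

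Pou5f1_E084 had the lowest boost of the 56 at Ap1m1. It lowered the Ap1m1 promoter below the control combinations in every replicate (-0.57, -0.53 and -0.48), while at Klf2 it was near the controls (-0.13, -0.09 and 0.11). This made a difference of 0.49 (SE 0.07, limma adjusted p = 0.000339). Pou5f1_E084 was named after its values were seen, as were Lefty1_E094, Tbx3_E203 and Sox2_E183.

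**Figure D3:**
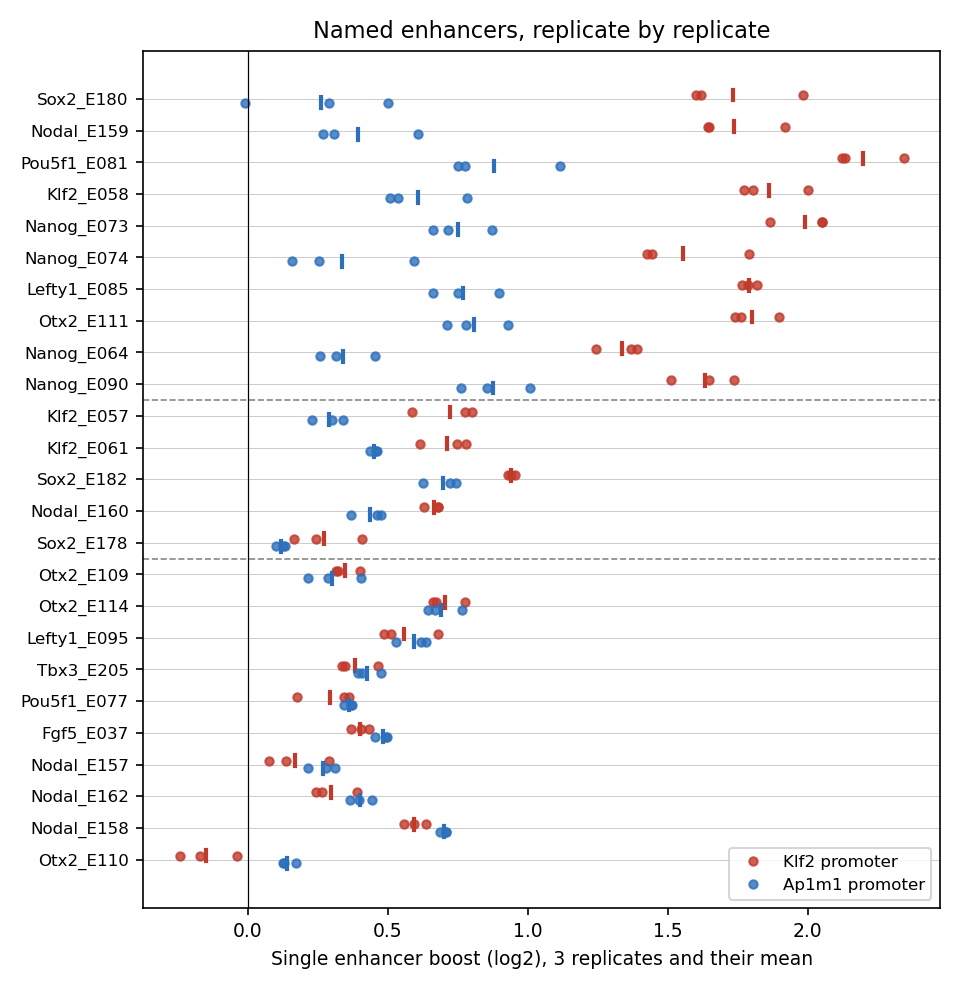
Median boost (log2, x axis) of the named enhancers over their EC combinations, with 1 point for each of the 3 replicates of each promoter and a mark at their mean. For the 10 enhancers with the largest difference no Klf2 point overlaps an Ap1m1 point, whereas at the low end the points of Otx2_E110 lie the other way round (-0.24 to -0.04 with Klf2, 0.12 to 0.17 with Ap1m1).

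Enhancers of the same locus often differed among themselves. All 7 tested Nanog enhancers and all 3 tested Klf2 enhancers were called higher with Klf2, as were 5 of 6 from Sox2, 4 of 9 from Pou5f1, and 3 each of the 7 from Lefty1, 7 from Otx2, 6 from Nodal, 6 from Tbx3 and 5 from Fgf5. These counts stand beside 60.7% over all tested enhancers. Within the Nodal locus the range ran from -0.11 to 1.34, and within the Otx2 locus from -0.29 to 0.99. No enhancer of the Tbx3 locus differed by more than 0.34. Among the enhancers that the study singles out, Sox2_E182 differed by 0.24 (SE 0.05, limma adjusted p = 0.00313), Nodal_E160 by 0.23 (SE 0.05, limma adjusted p = 0.00406) and Sox2_E178 by 0.15 (limma adjusted p = 0.0721). On the random-control baseline Sox2_E182 (0.036), Nodal_E160 (0.020), Klf2_E057 (0.22) and Klf2_E061 (0.052) were no longer called, and the value of Sox2_E178 was below 0. A change of baseline shifts all enhancers by the same amount and leaves their order as it was.

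Fragments from overlapping windows could differ strongly in their promoter preference. The design windows of Otx2_E110 and Otx2_E111 share 88 bp, which is the most that the shorter cloned products can share. The boost of Otx2_E110 minus that of Otx2_E111 was -1.95 ± 0.18 (SD, n = 3) with Klf2 and -0.67 ± 0.13 (SD, n = 3) with Ap1m1, so the gap differed by -1.29 (exact permutation p = 0.1). The windows of Nodal_E159 and Nodal_E160 share 100 bp, and Nodal_E159 was above Nodal_E160 by 1.07 ± 0.14 with Klf2 and by -0.04 ± 0.15 with Ap1m1, a difference of 1.11 (exact permutation p = 0.1). Nanog_E073 and Nanog_E074, whose windows share 66 bp, kept the same gap at both promoters (0.44 ± 0.18 and 0.41 ± 0.14, exact permutation p = 0.9). So did Sox2_E181 and Sox2_E182, whose windows share 63 bp (-0.44 ± 0.04 and -0.42 ± 0.02, exact permutation p = 0.5). Gaps between fragments of the same library do not depend on its baseline. Of the 9 overlapping pairs these 4 were chosen after their values were seen.

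Position affected the size of the difference, more for some enhancers than for others. The median EC boost with the enhancer in position 1 was 0.75 with Klf2 and 0.36 with Ap1m1 (difference 0.38), and in position 2 it was 0.82 and 0.57 (difference 0.26). The difference between positions was larger at Ap1m1 (-0.23, -0.18 and -0.19 in the 3 replicates) than at Klf2 (-0.08, -0.07 and -0.08), by 0.13 (exact permutation p = 0.1). Over the 53 enhancers measured in both positions the Klf2 minus Ap1m1 differences correlated with r = 0.95, and 47 had the same sign. The largest gap was 0.63, for Pou5f1_E076, a fragment named after its values were seen, with 0.65 in position 1 and 0.02 in position 2. Nodal_E160 had 0.52 in position 1 and 0.057 in position 2, where it was not called. Orientation left the comparison within the spread between replicates (EC difference 0.31 in plus and 0.32 in minus orientation, exact permutation p = 1).

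In pairs of enhancers nearly every enhancer had a higher boost with Klf2. Over its EE combinations, 55 of the 58 enhancers tested (94.8%) were called higher with Klf2 and none lower (0.0%). Nanog_E089, Nodal_E162 and Otx2_E110 were not called. The differences ran from 0.04 to 1.42 with a median of 0.47. These values carry the contribution of the partner enhancers, so they are not those of the enhancer itself. The number called was 19 on the random-control baseline. The differences in EE combinations followed those in EC combinations with r = 0.98 over 56 enhancers, and in 50 of the 56 the EE difference was the larger. The exceptions were Sox2_E180, Nodal_E159, Pou5f1_E081, Klf2_E058, Nanog_E073 and Nanog_E074, all among the 10. The median of the EE minus the EC difference was -0.048 for the 10 and 0.27 for the other enhancers.

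Pairs were therefore divided by how many of the 10 enhancers they held. In the 5403 EE combinations without any of the 10, the median boost was 1.11 ± 0.04 (SD, n = 3) with Klf2 and 0.79 ± 0.03 (SD, n = 3) with Ap1m1. In the 2851 with 1 of the 10 it was 1.90 ± 0.12 with Klf2 and 0.78 ± 0.16 with Ap1m1. In the 318 with 2 of the 10 it was 1.92 ± 0.17 with Klf2 and 0.56 ± 0.27 with Ap1m1. At Klf2 the combinations with 1 and with 2 of the 10 thus had similar boosts, above those with none. At Ap1m1 the replicates went different ways, from 0.76, 0.82 and 0.78 with none of the 10 to 0.66, 0.97 and 0.71 with 1 and to 0.35, 0.86 and 0.46 with 2. The enhancers of the 10 were chosen on the EC combinations of the same replicates, and these values are a description.

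**Figure D4:**
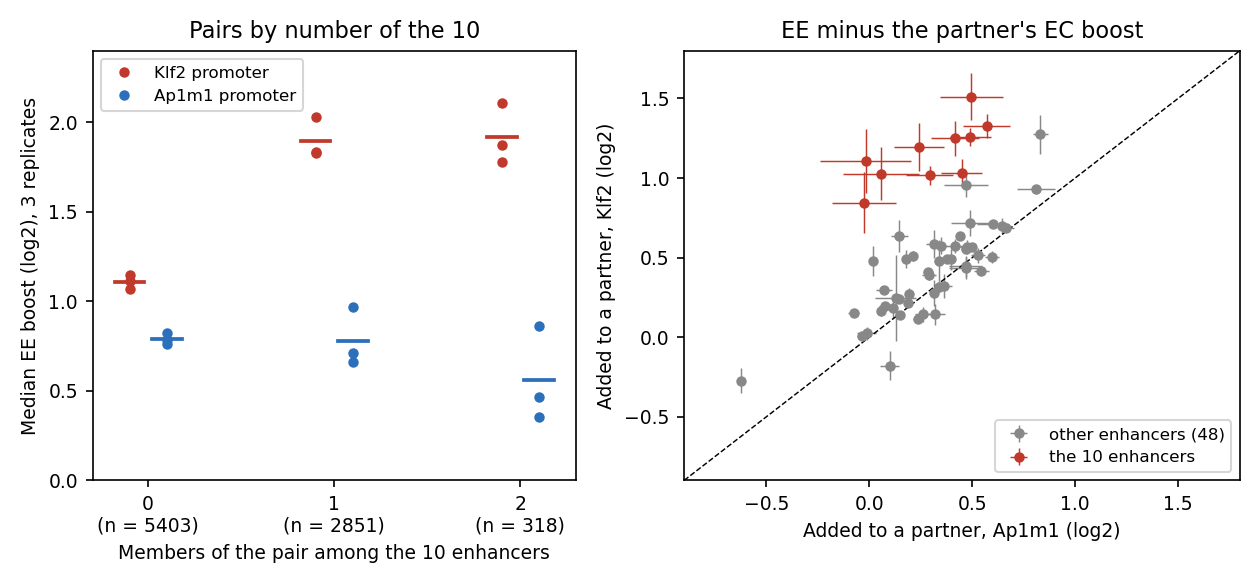
Left, median EE boost (log2) of combinations with 0, 1 or 2 of the 10 enhancers, with 1 point per replicate: the Klf2 values go from 1.11 to 1.90 and 1.92, and the Ap1m1 values from 0.79 to 0.78 and 0.56. Right, the boost each enhancer added to a partner (log2), at Ap1m1 (x axis) and at Klf2 (y axis), with the line of equality.

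The boost that an enhancer added to a partner, taken as the EE boost minus the EC boost of the partner in the same position, does not depend on the baseline. The median over 58 enhancers was 0.49 with Klf2 and 0.32 with Ap1m1. The difference was 0.58 or more for each of the 10, while the other 48 had a median of 0.10 and a maximum of 0.49. The 10 were chosen by their EC difference in the same replicates, so their lying apart here is a description. Klf2_E046, at 0.49, had too few EC combinations to be chosen. Sox2_E180 added 1.11 ± 0.20 (SD, n = 3) at Klf2 and -0.02 ± 0.22 (SD, n = 3) at Ap1m1. Nodal_E159 added 1.03 at Klf2 and 0.06 at Ap1m1, and Nanog_E074 0.85 and -0.03. The other 7 of the 10 added to their partners at Ap1m1 too, from 0.24 for Klf2_E058 and 0.29 for Nanog_E064 to 0.49 for Pou5f1_E081 and 0.57 for Otx2_E111, and each added more at Klf2. Pou5f1_E084 took away from its partners at both promoters, with -0.27 at Klf2 and -0.62 at Ap1m1. Otx2_E110 added -0.18 at Klf2 and 0.10 at Ap1m1. In 39 of the 58 enhancers every Klf2 replicate lay above every Ap1m1 replicate, and in 6 below, so 77.6% did not overlap.

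Among 2435 ordered pairs of enhancers, each with at least 2 shared orientations, 1802 (74.0%) were called higher with Klf2 and 19 (0.78%) lower. With each replicate left out the number lower ran from 8 (without the third Ap1m1 replicate) to 30 (without the third Klf2 replicate). All 5 pairs with the largest difference held Sox2_E180. Sox2_E180 with Otx2_E112 gave 1.53, 1.88 and 1.59 with Klf2 and -0.83, -0.51 and -0.24 with Ap1m1, a difference of 2.20 (SE 0.16, limma adjusted p = 3.75e-05, 3 orientations). In this pair the Ap1m1 promoter stood below its control combinations in every replicate, and the Klf2 promoter well above them. Sox2_E180 with Fgf5_E040 differed by 1.73, Nanog_E088 with Sox2_E180 by 1.72, Sox2_E180 with Nanog_E065 by 1.69 and Klf2_E058 with Sox2_E180 by 1.69.

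Of the 5 pairs at the low end, 4 held Otx2_E110. Fgf5_E036 with Otx2_E110 had a boost of 0.40 ± 0.17 (SD, n = 3) with Klf2 and 0.91 ± 0.07 with Ap1m1, a difference of -0.51. Pou5f1_E083 with Otx2_E110 differed by -0.47 and Tbx3_E206 with Otx2_E110 by -0.45, and all 3 were called. Pou5f1_E082 with Otx2_E110 had the lowest value, -0.59, but its Klf2 replicates ran from -1.08 to 0.39 and it was not called (limma adjusted p = 0.10). Pou5f1_E077 with Sox2_E178 differed by -0.43. By locus, the median difference over EE combinations ran from 0.20 for pairs of Nodal enhancers to 1.20 for a Klf2 and a Nanog enhancer, over 45 pairs of loci.

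By the median over combinations, both promoters combined their enhancers close to additively. For 8274 EE combinations an expected activity was formed by adding the contributions of each enhancer, from its EC median in that position, on the linear scale. The median log2 ratio of observed over expected activity was -0.01, 0.01 and -0.01 in the Klf2 replicates and -0.02 in each Ap1m1 replicate, which differed by 0.02 (exact permutation p = 0.1). With a multiplicative expectation the median was -0.24 ± 0.02 (SD, n = 3) with Klf2 and -0.12 ± 0.02 (SD, n = 3) with Ap1m1, so the difference turned to -0.12. The additive expectation gave a median difference between the promoters of 0.53, against 0.59 observed in the same combinations. Across these combinations the expected and observed differences correlated with r = 0.87 and a slope of 0.92. Under the multiplicative expectation they correlated with r = 0.86 and a slope of 0.68, so the correlation hardly separates the models. The paper reports that the models could barely be told apart for Ap1m1. In the 2066 combinations with the highest expected difference, observed activity was below the expectation at both promoters, with a log2 ratio of -0.22 for Klf2 and -0.18 for Ap1m1.

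The design held 4 fragments from the Klf2 locus itself, in which both promoters lie. Klf2_E046 lies 47436 bp from the Klf2 promoter, between the promoters, and Klf2_E057 (7587 bp) and Klf2_E058 (2581 bp) lie on the same side. Klf2_E061 (15340 bp) lies on the other side. Klf2_E058 gave 1.81, 2.00 and 1.77 with Klf2 and 0.54, 0.78 and 0.51 with Ap1m1 over 136 combinations. Klf2_E057 gave 0.72 ± 0.12 against 0.29 ± 0.06 (SD, n = 3), and Klf2_E061 0.71 ± 0.09 against 0.45 ± 0.02. Klf2_E046 was in only 2 shared EC combinations (1.41 against 1.20, not tested) but in 215 EE combinations, where it had 1.77 ± 0.12 with Klf2 and 0.91 ± 0.11 with Ap1m1.

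Fragments of the Klf2 locus had higher boosts than the others at Klf2 but not at Ap1m1, and for single enhancers this rested on Klf2_E058. Their EC boost minus that of the other EC combinations was 0.46, 0.56 and 0.31 with Klf2 and 0.02, 0.04 and -0.04 with Ap1m1, a difference of 0.44 (exact permutation p = 0.1). Without Klf2_E058 the difference was 0.04 (exact permutation p = 0.6, 142 combinations). The 26 EE combinations of 2 Klf2-locus fragments had a median difference of 1.17, all above 0, and 24 (92.3%) were called, beside 90.6% above 0 and 64.0% called over all EE combinations. Pairs of 2 Nanog enhancers had a median difference of the same size, 1.18. Compared with the other EE combinations, the 26 of 2 Klf2-locus fragments stood at 0.37 with Klf2 and -0.10 with Ap1m1 (difference 0.47, exact permutation p = 0.1). The 10 of these without Klf2_E058 stood 0.36 higher at Klf2 and 0.09 higher at Ap1m1 (difference 0.27, exact permutation p = 0.1). Klf2_E061 with Klf2_E046 gave 1.87 ± 0.16 (SD, n = 3) at Klf2 and 0.81 ± 0.17 at Ap1m1. Klf2_E058 with Klf2_E057 gave 1.56 ± 0.20 and 0.22 ± 0.15 (SD, n = 3), beside 1.86 and 0.61 for Klf2_E058 with a control.

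**Figure D5:**
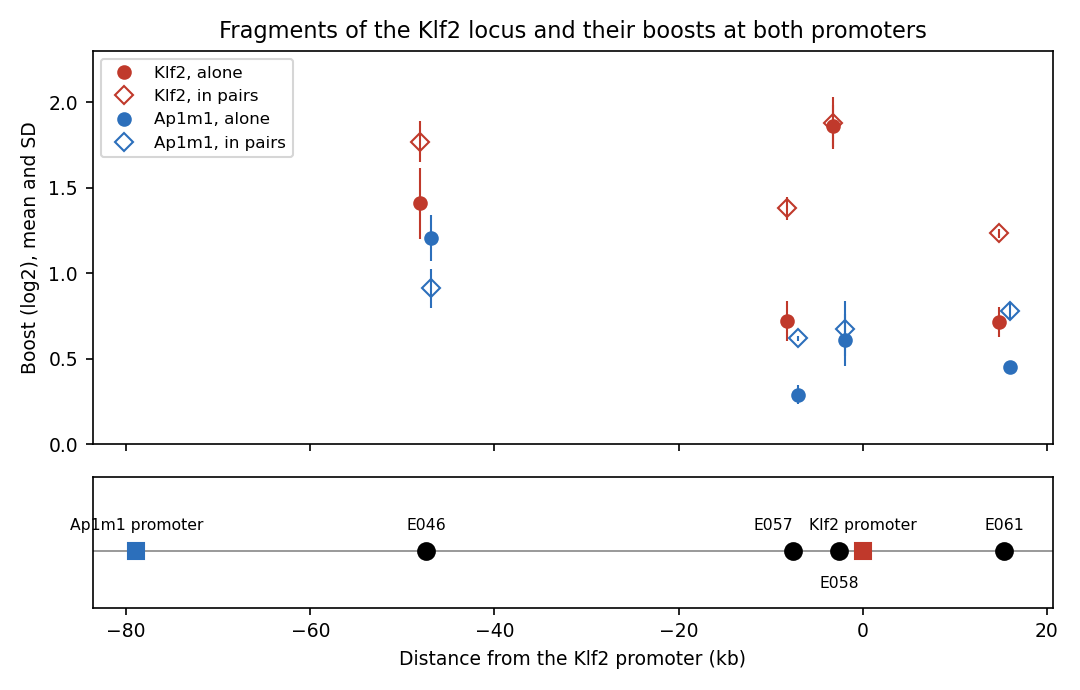
Boost (log2, mean and SD of 3 replicates) of the 4 fragments of the Klf2 locus at the Klf2 and at the Ap1m1 promoter, alone in EC combinations (filled circles) and in EE combinations (open diamonds), against their distance from the Klf2 promoter in kb. Klf2_E058, the nearest to that promoter, has the largest gap between the promoters when alone (1.86 against 0.61).

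The Otx2 promoter, a further developmental promoter with a similar correlation between replicates, was set beside them on 13138 combinations that all 3 libraries shared. It was taken because its baseline was like that of Klf2. The log2 median CC activity was -1.25 ± 0.18 (SD, n = 3) with Otx2, beside -1.33 with Klf2 and -0.77 with Ap1m1. Promoter class and baseline therefore cannot be told apart here, and neither was tested. These comparisons use the same replicates and are given side by side. Otx2 minus Ap1m1 had a median of 0.31 over EC and 0.61 over EE combinations, and by limma 6839 combinations (52.1%) were higher with Otx2 and 215 (1.64%) lower. Of the 56 enhancers 31 were called higher with Otx2, among them all of the 10, by 0.78 to 1.39. The 10 were chosen with the same Ap1m1 replicates, so these values are a description. Otx2_E110 had a boost of -0.39 with the Otx2 promoter, the promoter of its own locus, a difference of -0.53 from Ap1m1. Klf2 minus Otx2 had a median of -0.02 over EC and -0.01 over EE combinations, and the boosts of these promoters correlated with r = 0.93 over combinations.

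Between Klf2 and Otx2 limma called none of the 13138 combinations higher or lower (0.0% each), with 1229 (9.35%) at an unadjusted p under 0.05, and none of the 56 enhancers, with 1 at an unadjusted p under 0.05. For the 10 enhancers the Klf2 minus Otx2 values ran from -0.10 to 0.12. The largest value in favour of Klf2 was that of Otx2_E110, 0.28 (SE 0.12, limma adjusted p = 0.745). On a baseline of random controls, 75 combinations were called between Klf2 and Otx2.

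The control fragments give the size of differences in the absence of an enhancer. Over its CC combinations, each of the 20 controls differed between the promoters by -0.28 to 0.38. The lowest were E46-shuffled3 (0.04 ± 0.10 with Klf2 and 0.32 ± 0.07 with Ap1m1, SD, n = 3, difference -0.28), E30-shuffled2 (-0.21) and E30-shuffled3 (-0.16). The highest were E6-shuffled1 (0.38, from 6 combinations), RandomE1 (0.13) and E27-shuffled1 (0.13). Each of the 10 enhancers lies above this range and Otx2_E110 just below it. The median enhancer difference of 0.22 lies within it only through E6-shuffled1, since the next highest control is at 0.13.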

How the data were processed

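Each library was transfected into E14TG2a cells in 3 biological replicates, RNA was reverse transcribed, and barcodes were counted in cDNA and in plasmid DNA. The authors linked barcodes to elements with Bowtie2 on the element sequences (the submitters' processing notes name mm10), kept barcodes with at least 8 plasmid DNA counts, and deposited activities as a ratio, the share of a barcode in cDNA over its share in plasmid DNA, averaged over at least 5 barcodes. Means and boosts that the authors had computed from these were not used. Per library and replicate, boost was computed here as log2 of the activity minus log2 of the median CC activity. Differences were tested with limma 3.58.1 (R 4.3.3, lmFit and eBayes, Benjamini-Hochberg, FDR 5%) on combinations, on medians per enhancer (at least 6 combinations) and per ordered pair (at least 2 orientations). Single values were tested by exact permutation over the 6 replicates (Python 3.11.15, scipy 1.17.1). No samples were dropped.

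The combinations, lists and tests were chosen with earlier results of these data known. Named were both promoters, the fragments of the Klf2 locus, the 10 enhancers at each end, those the study names, and the 5 pairs and 3 controls at each end. Same-numbered replicates of the libraries were not paired. Deviations from the group means correlated at 0.08, 0.18 and 0.06 between same-numbered replicates and at -0.12 to 0.04 between the others. These values are weak but do not exclude a shared replicate effect, and fits with a replicate block are given below. On simulated data with planted differences of 0.75 and 1.5, limma called 41.4% and 85.1% of the changed combinations and 8 of 13788 unchanged ones. The simulated noise was independent between replicates and few combinations were changed. Errors shared by the replicates of a library were absent from it, so it does not give the rate of false calls in the real data. Depth and barcode numbers per value are unknown, so no counting interval was given. Alternatives were other baselines, filters, a pseudocount, positions, averages, a replicate block and leaving out each replicate.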

Additional observations from a re-analysis of the deposited data

Results flagged for a closer look

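In 4 results every replicate of a library lay above its control combinations and every replicate of the other library below them. For the single enhancer Otx2_E110 the Klf2 boosts were below 0 and the Ap1m1 boosts above 0, with a difference of -0.29. For the single enhancer Nanog_E065 it was the reverse (0.28, 0.24 and 0.20 with Klf2 against -0.03, -0.14 and -0.18 with Ap1m1), with a difference of 0.36 (SE 0.06, limma adjusted p = 0.000574). Of the named pairs, Sox2_E180 with Otx2_E112 differed by 2.20, and Sox2_E180 with Nanog_E065 by 1.69, where the Ap1m1 values were between -0.11 and 0.00. The position of 0 is set by the baseline of each library.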

How the results depend on the processing

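Of 244 recomputed values of the main results, 225 kept their sign, for a single value, or a total within 1.5 times, for a number of calls, which says nothing of the split or of which were called. Among them, the EC difference of the Klf2 locus was 0.04 without Klf2_E058, and the split of the calls moved under centring. The median CC difference turned from -0.02 to 0 with only the shared CC combinations as the baseline and to 0.027 with the shuffled controls. The difference in CC span was -0.016 with a pseudocount of 0.05 and -0.025 to 0.17 with each replicate left out. Observed over expected activity differed by -0.12 under the multiplicative model, which is another expectation. The orientation difference ran from -0.013 to 0.0079 with each replicate left out. With the random controls as the baseline, 4889 combinations, 13 single enhancers, 19 enhancers in pairs and 1122 pairs were called, with 15 single enhancers for Otx2 against Ap1m1 and 75 combinations for Klf2 against Otx2. That baseline, with few combinations, lay above the main one by 0.24 ± 0.20 (SD, n = 3) for Klf2 and by 0.03 ± 0.15 for Ap1m1. It lowered the boosts by the same amounts. Requiring a difference of at least 0.5 left 13 single enhancers and 27 enhancers in pairs. Centring each library on all shared combinations moves the median of all by 0.50, and the calls were then 3918 higher and 3048 lower for combinations, 11 and 37 for single enhancers, 20 and 18 in pairs and 985 and 576 for pairs.

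With the replicate block limma called 7739 combinations, 40 single enhancers, 57 enhancers in pairs and 1958 pairs, and 27 combinations for Klf2 against Otx2, and for the paired single values the exact permutation p was 0.25, the smallest it can give, for all except the CC span (0.75) and orientation (1). Leaving out each replicate gave 6515 to 7281 combinations (135 to 236 of them lower), 29 to 36 single enhancers (1 to 4 lower), 54 to 56 in pairs, 1651 to 1801 pairs (8 to 30 lower), and, for Klf2 against Otx2, 0 to 1 combinations and 0 to 2 single enhancers.

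Of 499 recomputed values for the named enhancers, 455 kept direction and call, 6 lost the call, 15 gained it and 23 changed sign. The random baseline ended the calls of Klf2_E057, Klf2_E061, Sox2_E182 and Nodal_E160, position 2 that of Nodal_E160 and position 1 that of Otx2_E110. Centring gave -0.070 for Klf2_E057, -0.24 for Klf2_E061, -0.35 for Sox2_E178, -0.26 for Sox2_E182, -0.27 for Nodal_E160, -0.49 for Otx2_E114 and -0.46 for Otx2_E109. The random baseline gave -0.20 for Otx2_E114, -0.16 for Otx2_E109 and -0.056 for Sox2_E178. Position 2 alone gave 0.048 for Pou5f1_E077, 0.039 for Lefty1_E095, -0.038 for Otx2_E114 and -0.0094 for Otx2_E109. Tbx3_E205 gave 0.0081 in position 1 and 0.0018 with the shuffled baseline, and Lefty1_E095 0.0089 with that baseline, 0.030 with all EC combinations and -0.096 to 0.00064 with each replicate left out. Otx2_E114 gave -0.0079 with the pseudocount and -0.025 to 0.048 with each replicate left out. The causes of these changes were not tested. Each promoter was 1 library, so its plasmids are not replicated.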
